A study of Papio anubis with 40 samples.

Results

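The short 5′ fragments of the glycine tRNA with anticodon CCC (Gly-CCC) that circulate in serum were described by length, by sequence and by month. They were taken as every fragment of 25 to 29 nt that carries the same first 20 bases, the start of Gly-CCC. This rule found 103 of the 58587 distinct fragments counted, and these 103 held 29345689 of 130892201 counts, or 22.4%. The serum came from 8 olive baboons (Papio anubis), 0.5 mL per draw. The later draws were taken at months 3, 6, 9 and 15 after menstrual tissue had been placed in the peritoneal cavity at laparoscopy, which induces endometriosis in this species. The draw before inoculation, called month 0, was the basal level of the same animals. All 40 libraries (8 animals at each of 5 draws) are labelled as untreated. No draws from animals without inoculation were analysed here, so a difference between months cannot be told apart from the passage of time.

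A tRNA carries an amino acid to the ribosome and is cut into smaller RNAs, some of which reach the blood. Cuts in the anticodon loop, such as those made by the nuclease angiogenin, leave a long 5′ piece. Shorter 5′ fragments end upstream of the anticodon, and 5′ fragments of glycine tRNAs are known to be abundant in serum. The libraries were made by ligating adapters to both RNA ends, so a fragment was counted by its exact sequence and its last base is taken as where the RNA ended. Only RNAs that took both adapters could be counted. Some libraries were also size-selected (which ones is not stated), and the part of either step in the length shares was not tested.

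The commonest fragment of each length is printed here because the results turn on where each one ends, and the capital marks that last base.
tRF-25-Q1Q89P9L84: gcgccgctggtgtagtggtatcatG
tRF-26-Q1Q89P9L84D: gcgccgctggtgtagtggtatcatgC
tRF-27-Q1Q89P9L842: gcgccgctggtgtagtggtatcatgcA
tRF-28-Q1Q89P9L84DF: gcgccgctggtgtagtggtatcatgcaA
tRF-29-Q1Q89P9L84FS: gcgccgctggtgtagtggtatcatgcaaG

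To place these ends on the tRNA, the commonest 35 nt fragment with the same start is shown with its anticodon in capitals, followed by the anticodon stem and loop read from the commonest 52 nt fragment.
35 nt fragment: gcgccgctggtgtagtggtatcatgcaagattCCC
Stem and loop: caagattCCCattcttg

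Counted from the 5′ end, the anticodon was bases 33 to 35. Bases 26 to 30 were complementary to bases 38 to 42 in 5 of 5 pairs, and bases 31 to 37 lay between them as the loop. The 25 nt fragment therefore stopped just before the anticodon stem. The 26, 27, 28 and 29 nt fragments stopped inside its 5′ strand, the 30 nt fragment at the strand's last base and the 32 nt fragment directly before the anticodon. RefSeq lists 6 Gly-CCC tRNA genes (TRNAG-CCC) in the baboon assembly Panubis1.0, each 71 nt long. The genome build behind the counts is not given in the sources used here, so no gene was assigned and no coordinates are given.

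Library totals ran between 198840 and 6245450 counts, with a median of 3269163. The month 0 library of PA8001 was the smallest. A floor of 3 counts corresponded to 15.1 CPM (counts scaled to a common library total) in that library and to 0.480 CPM in the largest, which covers counting error only. All levels below are shares of a library, so a lower share of one fragment and a higher share of the rest cannot be told apart. TMM factors, which rescale library totals, ran between 0.458 in the month 15 library of PA8003 and 1.93 in the month 0 library of PA8001. The month 15 libraries of PA8003 and PA8001 also held the most 30 to 36 nt Gly-CCC 5′ fragments of that draw, at 60.2% and 37.4% of counts, and the month 0 library of PA8001 held 42.04%.

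The ends were not spread evenly over the 5 lengths. Fragments of 27 nt made up 56.3% and those of 29 nt 40.4% of the counts at 25 to 29 nt, while 28 nt, the length between them, made up 3.07%. The 26 nt fragments made up 0.175% and the 25 nt fragments 0.0265%. Over the 40 libraries, 27 nt averaged 11.7% ± 4.48 of a library (SD), with a lowest value of 3.09%, a median of 11.4% and a highest value of 20.8%. The 29 nt fragments averaged 9.32% ± 2.48 (lowest 4.22%, median 9.40%, highest 14.8%) and the 28 nt fragments 0.697% ± 0.187 (lowest 0.258%, median 0.712%, highest 1.16%). The range of the 28 nt fragments therefore lay below those of both its neighbours in length, with no overlap. The 26 nt fragments averaged 0.0413% ± 0.0559 and the 25 nt fragments 0.00597% ± 0.00418.

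**Figure D1:**
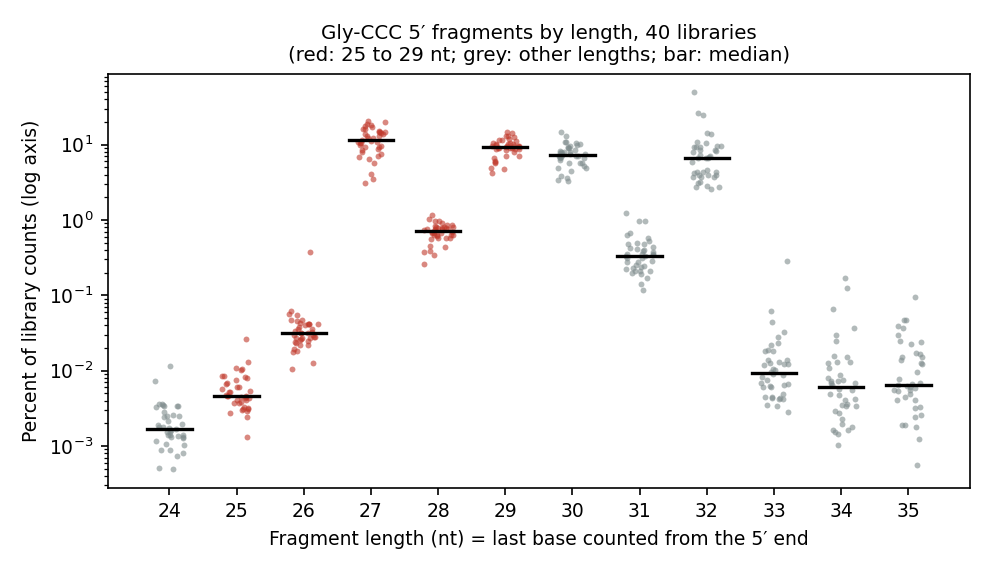
Percent of library counts (log axis) held by Gly-CCC 5′ fragments of each length from 24 to 35 nt; each point is 1 of 40 libraries, the bar is the median, and lengths of 25 to 29 nt are red. The 27 nt points sit between 3.09% and 20.8% and the 29 nt points between 4.22% and 14.8%; the 28 nt points reach 1.16% and the 26 nt points 0.379%.

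Just outside the length limits, the 24 nt fragments averaged 0.00226% of a library and the 30 nt fragments 7.48%. Beyond them, 31 nt averaged 0.390% and 32 nt 8.48%. Low levels thus stood at 28 nt and at 31 nt, between high levels at 27, 29, 30 and 32 nt. Fragments that started further in were read for the same ends. Of 682079 counts that started at base 2 and ended at bases 25 to 36, 60.9% ended at base 27, 2.38% at base 28, 23.1% at base 29, 9.98% at base 30 and 3.31% at base 32. Of the 47240431 counts that started at base 1 over the same ends (commonest sequences only), 34.2% ended at base 27, 1.85% at base 28, 24.3% at base 29, 19.1% at base 30 and 19.4% at base 32. Starts at bases 1 and 2 shared the order 27, 29, 28 for ends inside the stem. Of the 33475 counts that started at base 3, 20.6% ended at base 27, 1.98% at base 28, 26.5% at base 29 and 36.2% at base 30, so base 29 exceeded base 27 there. Of the 7525 counts that started at base 4, 22.1% ended at base 27, 1.95% at base 28, 20.5% at base 29 and 25.3% at base 30. Base 28 was thus below bases 27 and 29 for all 4 starts, while the order of bases 27, 29 and 30 differed. No test was run on these pooled counts, which come from the same libraries.

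The lengths used differed from those of a near relative and of an unrelated tRNA. Over 25 to 29 nt, the 5′ fragments of the glycine tRNA with anticodon GCC (Gly-GCC) had 51.2% of their 989838 counts at 28 nt and 27.9% at 27 nt. The valine 5′ fragments (Val-AAC/CAC, whose anticodons cannot be separated) had 47.4% of their 108903 counts at 29 nt and 0.340% at 27 nt. Lengths of 25 to 29 nt held 60.2% of the Gly-CCC counts between 25 and 36 nt, against 24.5% for Gly-GCC and 0.221% for valine. These shares are pooled counts and were not tested.

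Levels of neighbouring ends went together across libraries to unequal degrees. Over the 40 libraries, the Spearman correlation of 28 nt with 29 nt was 0.880 and that of 29 nt with 30 nt was 0.873. That of 27 nt with 28 nt was 0.462, that of 27 nt with 29 nt was 0.295, and that of 27 nt with 32 nt was -0.454. The 26 nt level had a correlation of 0.713 with 27 nt. These points share library totals and 8 animals, so the values are descriptions.

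The draws were then set against one another by length. Fragments of 25 to 29 nt together averaged 24.03% ± 6.55 of a library at month 0, 22.6% ± 6.49 at month 3, 19.9% ± 4.56 at month 6, 24.8% ± 4.01 at month 9 and 17.7% ± 5.07 at month 15 (SD, n = 8 each). At month 15 the lowest, median and highest libraries were at 10.6%, 18.9% and 24.7%, against 15.6%, 24.8% and 34.3% at month 0. The sum was lower at month 15 than at month 0 in 8 of 8 animals and lower than at month 9 in 8 of 8. The draws overlapped. The difference between month 15 and month 0 was smallest in PA8835, at 24.7% and 25.1%, and greatest in PA8003, at 12.7% and 34.3%. Without PA8001 and PA8003 the mean was 18.4% at month 15 and 23.1% at month 0.

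In the means, most of that difference lay at 27 nt, but not in every animal. The 27 nt fragments averaged 12.7% ± 5.57 at month 0, 12.2% ± 5.52 at month 3, 10.9% ± 2.48 at month 6, 14.3% ± 2.61 at month 9 and 8.38% ± 3.85 at month 15. The lowest, median and highest month 15 libraries were at 3.09%, 8.59% and 14.5%, against 10.6%, 14.8% and 17.5% at month 9 and 3.49%, 13.4% and 19.99% at month 0. Month 15 was lower than month 9 in 7 of 8 animals and lower than month 0 in 5 of 8. The animal without the lower level at month 15 than at month 9 was PA8872, at 11.2% and 10.9%. PA8001 had 6.42% at month 15 and 3.49% at month 0, the lowest month 0 value. PA8835 had 14.5% and 13.9%, and PA8915 had 7.40% and 7.02%. In PA8001, PA8835 and PA8915 the 29 nt share was lower at month 15, at 11.0%, 9.35% and 4.96%. Their month 0 values at 29 nt were 14.8%, 10.4% and 7.90%. In PA8873 and PA8912 29 nt was higher at month 15, at 6.13% and 9.83% against 5.82% and 9.05%. Without PA8001 and PA8003 the 27 nt mean was 9.59% at month 15 and 14.02% at month 9.

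In the means, the other lengths moved less or were rare. The 29 nt fragments averaged 10.5% ± 3.03 at month 0, 9.57% ± 2.67 at month 3, 8.30% ± 2.62 at month 6, 9.65% ± 1.87 at month 9 and 8.57% ± 2.02 at month 15. The 28 nt fragments averaged 0.759% ± 0.205, 0.719% ± 0.210, 0.615% ± 0.180, 0.748% ± 0.146 and 0.645% ± 0.191 over the same 5 draws. The draws overlapped widely at both lengths. The 25 nt fragments averaged 0.00692% ± 0.00257 at month 0, 0.00487% ± 0.00318 at month 3, 0.00377% ± 0.000646 at month 6, 0.00459% ± 0.00164 at month 9 and 0.00971% ± 0.00717 at month 15. At month 15 they were higher than at month 6 in 8 of 8 animals, with a lowest value of 0.00466% at month 15 and a highest of 0.00457% at month 6, so those draws did not overlap. The 26 nt median was 0.0277% at month 15 and 0.0396% at month 0, with PA8872 far above the rest at month 15, at 0.379%.

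**Figure D2:**
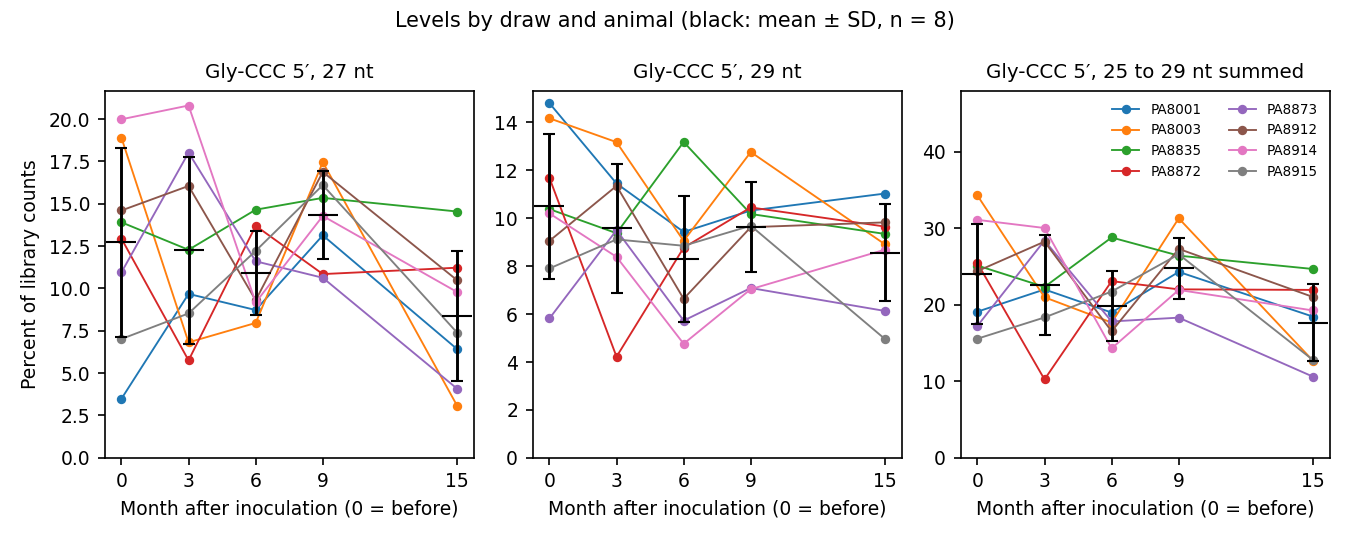
Percent of library counts at 27 nt, at 29 nt and over 25 to 29 nt against month after inoculation; each line is 1 of 8 baboons and the black marks are the mean ± SD. On plain library totals, without TMM factors, the summed share at month 15 lies below month 0 in 8 of 8 animals. The 27 nt mean is 8.38% at month 15 and 12.7% at month 0.

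Animals differed in which length led. The ratio of the commonest 27 nt fragment to the commonest 29 nt fragment had its highest median over 5 draws in PA8914, at 1.97, followed by PA8873 at 1.90. It had its lowest in PA8001, at 0.852, and PA8003, at 0.885. In PA8914 the 27 nt fragment exceeded the 29 nt fragment in every draw (1.13 to 2.49). In PA8001 it did so at month 9 only, with a ratio of 1.28, and the ratio was 0.238 at month 0.

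The length ratio was tested within animals. On the log2 scale the ratio of 27 nt to 29 nt averaged 0.18 at month 0, 0.30 at month 3, 0.44 at month 6, 0.59 at month 9 and -0.14 at month 15. The difference between month 15 and month 0 was -0.31 ± 1.10 (SD, n = 8; lower in 4 of 8 animals; exact two-sided sign-flip p = 0.461). Against the 32 nt fragment, which ends directly before the anticodon, the 27 nt fragment differed by -1.30 ± 2.13 at month 15 from month 0 (lower in 5 of 8 animals; exact two-sided sign-flip p = 0.172). At month 9 that difference was 1.00 ± 1.505 (higher in 7 of 8 animals; exact p = 0.0781) and at month 6 it was 0.86 ± 1.15 (7 of 8 animals higher; exact p = 0.0703). The 8 ratio tests did not pass: the smallest p adjusted over them was 0.312 by the exact test, and the smallest p that 8 animals allow is 0.00781. After adjustment over 8 tests, a single comparison at that smallest p could not have come under 0.05 on its own. Single animals moved these differences. Without PA8003 the month 15 difference was -0.76 against 32 nt and -0.078 against 29 nt, and without PA8001 it was -1.61 and -0.54. Without PA8001 the month 9 difference against 32 nt was 0.57. The 32 nt fragment had 16.6% ± 14.4 of a library at month 15 and 9.71% ± 7.21 at month 0, with PA8003 at 49.3% at month 15.

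**Figure D3:**
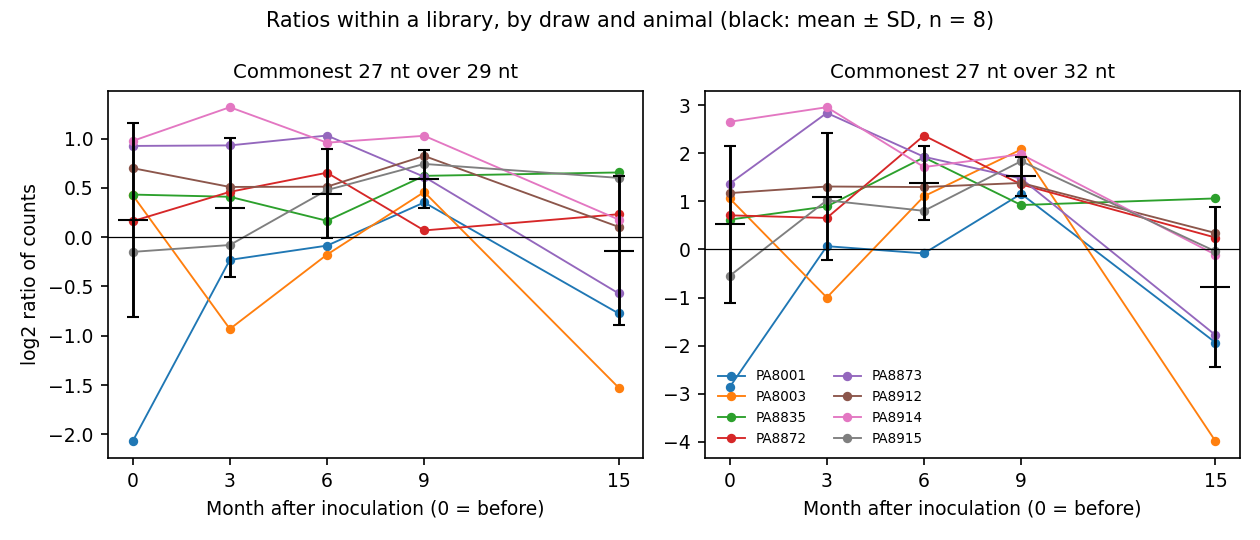
log2 ratio of the commonest 27 nt fragment to the commonest 29 nt fragment and to the commonest 32 nt fragment against month after inoculation; lines are animals and black marks the mean ± SD, n = 8. The mean 27 over 32 nt ratio is -0.78 at month 15 and 0.52 at month 0, with PA8003 lowest at month 15 and PA8001 lowest at month 0.

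Single fragments were tested over the whole table with edgeR's quasi-likelihood test, with animal as a block and Benjamini-Hochberg adjustment over the 2447 fragments that passed a filter on low counts. Of the 103 short Gly-CCC fragments, 58 passed the filter (1, 1, 19, 13 and 24 of lengths 25, 26, 27, 28 and 29 nt) and 45 did not. The lowest total that passed was 275 counts and the highest that did not was 256. The fitted log2 changes below follow from the TMM-scaled counts, and an adjusted p under 0.05 was taken as passing.

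Against month 0 none of the 58 passed at any later draw. The table-wide share called was 0% at months 3, 6 and 9 and 2.37% at month 15. At an unadjusted p under 0.05 the counts were 0, 1, 3 and 17 of 58 at months 3, 6, 9 and 15 by edgeR, and DESeq2 called 4 at month 15 and 0 at months 3, 6 and 9. No table-wide share is given here for an unadjusted p or for DESeq2, so these counts cannot be set against a background. At month 15 the fitted change from month 0 was below 0 for 56 of 58, with a median log2 change of -0.41 beside 0.05 over all 2447 fragments. It was below 0 for 19 of 19 at 27 nt (median -0.61), 13 of 13 at 28 nt (median -0.25) and 24 of 24 at 29 nt (median -0.29), and these directions were the same with plain library totals. These fragments share their libraries and most of their sequence, so they are not separate lines of evidence. The commonest 25 and 26 nt fragments were the other 2, at 0.57 ± 0.423 and 0.46 ± 0.475 (SE); the first was -0.022 without PA8003 and the second -0.26 without PA8872.

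The smallest adjusted p at month 15 against month 0 was that of tRF-27-Q1Q89P9L8H2, the T24C fragment. In such a token the base of the commonest fragment comes first, then the position counted from 1 at the 5′ end, then the base found. Its lowest, median and highest levels were 18.5, 129 and 318 CPM at month 15, against 154, 202 and 272 CPM at month 0. The draws overlapped, and 6 of 8 animals were lower at month 15. The log2 change was -0.81 ± 0.248 (edgeR adjusted p = 0.0676). The next was tRF-27-Q1Q89P9L84L (C26G), with a median of 2.73 CPM at month 15 and 5.01 CPM at month 0 and a log2 change of -1.16 ± 0.366 (edgeR adjusted p = 0.0838). The commonest 27 nt fragment, tRF-27-Q1Q89P9L842, had a log2 change of -0.66 ± 0.372 (edgeR adjusted p = 0.298).

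At the earlier draws the smallest p-values came from scarce 29 nt fragments. tRF-29-Q1Q89P9L8MFS (G25C) had a median of 3.67 CPM at month 3, 3.17 CPM at month 6 and 3.25 CPM at month 9, against 5.92 CPM at month 0. Its log2 change was -0.43 ± 0.282 at month 3, -0.86 ± 0.286 at month 6 and -0.62 ± 0.284 at month 9 (edgeR adjusted p = 0.999, 0.303 and 0.582). tRF-29-Q1Q89P9L8KFS (T24G) had a median of 1.58 CPM at month 9 and 3.36 CPM at month 0, where its highest level was 6.43 CPM. It was lower at month 9 than at month 0 in 8 of 8 animals, with a log2 change of -0.73 ± 0.323 (edgeR adjusted p = 0.582). The floor of 3 counts was 15.1 CPM in the month 0 library of PA8001, so the direction in that animal rests on a level under the floor. tRF-27-Q1Q89P9L84L had a log2 change of -0.34 ± 0.344 at month 3 and tRF-25-Q1Q89P9L84 one of -0.79 ± 0.408 at month 6 (edgeR adjusted p = 0.999 and 0.435). None of these passed. At month 9 the fitted change from month 0 was above 0 for 19 of 19 at 27 nt (median 0.33), and with plain library totals for 16 of 19. These 19 share their libraries and most of their sequence. Counts summed over all 27 nt sequences changed by 0.46 ± 0.358 (edgeR adjusted p = 0.650). The median over all fragments is not given here for this comparison.

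The fragments that passed at month 15 against month 9 were nearly all 27 nt long. Of the 58 fragments, 16 fell at month 15 against month 9 and 0 rose. Calls in either direction were thus 27.6% of the 58, beside 30.6% of all fragments tested, which is near that background. The share of all fragments that fell is not given here, so the falls alone cannot be set against a background. Of the 16, 15 were 27 nt long and 1 was 28 nt long, while 0 of 24 passed at 29 nt. At an unadjusted p under 0.05 edgeR also had 0 of 24 at 29 nt, where the median change was -0.30. The 15 at 27 nt were the commonest fragment and single-base variants of it in the same libraries, so they are not separate lines of evidence. The difference between the lengths was not tested.

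The commonest of the 16 was tRF-27-Q1Q89P9L842, with a lowest, median and highest level of 30423, 83540 and 140638 CPM at month 15, against 100804, 142876 and 172265 CPM at month 9. On the TMM scale 7 of 8 animals were lower at month 15, and the log2 change was -1.11 ± 0.373 (edgeR adjusted p = 0.0247). The A27G fragment, tRF-27-Q1Q89P9L84K, had a median of 258 CPM at month 15 and 426 CPM at month 9 and fell by 1.06 on the log2 scale (SE 0.248; lower in 8 of 8 animals; edgeR adjusted p = 0.00788). The largest fitted changes among the 16 were those of tRF-27-Q1Q89P9L84F (C26A, -1.40 ± 0.368), tRF-27-Q1Q89P9L84L (C26G, -1.28 ± 0.360) and tRF-27-Q1Q89P9LU42 (C22A, -1.17 ± 0.346), all with medians under 10 CPM in both draws. The commonest 29 nt fragment, tRF-29-Q1Q89P9L84FS, had a median of 88378 CPM at month 15 and 94427 CPM at month 9, and a log2 change of -0.32 ± 0.280 (edgeR adjusted p = 0.391).

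The number of calls moved with the animals included, and the table-wide share for a changed setting is given only where stated. Without PA8003 there were 7 calls, and with PA8001 and PA8003 taken out of the month 15 draw there were 0, when 18 had an unadjusted p under 0.05 and 0.618% of the whole table was called. With those libraries out, tRF-27-Q1Q89P9L842 changed by -1.11 (edgeR adjusted p = 0.102) and tRF-27-Q1Q89P9L84K by -0.80 (edgeR adjusted p = 0.0840). With any 1 animal left out, tRF-27-Q1Q89P9L842 changed by between -1.30 and -0.95, and it did not pass without PA8001, PA8003 or PA8915. With plain library totals 3 passed, of which 2 were lower and 1, the 25 nt fragment, was higher.

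Against month 6, 6 of 58 passed at month 15 (10.3%, beside 26.6% over the whole table). The commonest 25 nt fragment, tRF-25-Q1Q89P9L84, rose: its lowest, median and highest levels were 44.1, 69.9 and 260 CPM at month 15, against 28.2, 36.4 and 43.6 CPM at month 6, with no overlap. Its log2 change was 1.36 ± 0.424 (edgeR adjusted p = 0.0183; higher in 7 of 8 animals on the TMM scale), and without PA8003 it was 0.85 (edgeR adjusted p = 0.108). The 5 that fell were all 27 nt long and carried a transition: A27G (-0.83 ± 0.247), T24C (-0.82 ± 0.244), A23G in tRF-27-Q1Q89P9LW42 (-0.70 ± 0.245), T21C in tRF-27-Q1Q89P9LK42 (-0.67 ± 0.251) and C26T in tRF-27-Q1Q89P9L84O (-0.63 ± 0.235). Each of the 5 was lower at month 15 in 8 of 8 animals on the TMM scale. The commonest 27 nt fragment changed by -0.54 ± 0.369 (edgeR adjusted p = 0.265), which did not pass. Without PA8001 1 of the 6 calls was left, without PA8003 2, without PA8873, PA8912 or PA8914 3 each, and with PA8001 and PA8003 taken out of the month 15 draw 0.

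Against month 3, 1 of 58 passed at month 15 (1.72%, beside 11.1% over the whole table). It was the T24C fragment of 27 nt, which fell by 0.74 on the log2 scale (SE 0.244; lower in 7 of 8 animals; edgeR adjusted p = 0.0468). The median over all fragments was -0.11 in this comparison. With any 1 animal left out the count was 0, except that it was 2 without PA8835. Tested jointly over all months, 3 of 58 passed (5.17%, beside 16.2% over the whole table): T24C, A27G and C26T, all at 27 nt (edgeR adjusted p = 0.0291, 0.0307 and 0.0456).

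**Figure D4:**
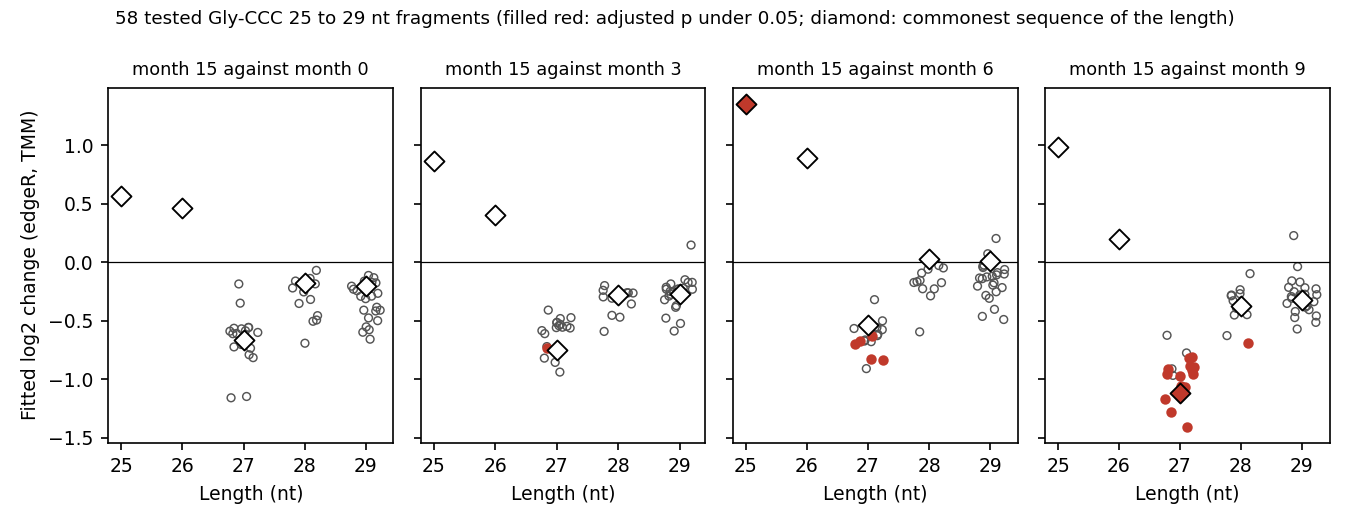
Fitted log2 change at month 15 against months 0, 3, 6 and 9 for the 58 tested short Gly-CCC fragments, by length in nt; diamonds are the commonest fragment of each length and filled red symbols have an edgeR adjusted p under 0.05. The 27 nt symbols lie below 0 in all 4 panels, and against month 9 their median is -0.95 while that of the 29 nt fragments is -0.30.

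Counts summed over all sequences of a length were tested in the same way, among 1659 sums by first bases and length. No Gly-CCC length from 25 to 29 nt passed at month 15 against month 0, where 3.86% of sums were called; the 27 nt sum changed by -0.67 ± 0.355 (edgeR adjusted p = 0.260) and 0 of 5 sums had an unadjusted p under 0.05. DESeq2 was run on single fragments only. The 27 nt sum fell at month 15 against month 9 by 1.14 on the log2 scale (SE 0.357; edgeR adjusted p = 0.0192; 29.1% of sums called). The 25 nt sum rose at month 15 against month 6 by 1.31 (SE 0.411; edgeR adjusted p = 0.0210; 24.9% called). Without PA8003 neither sum passed, and the 27 nt sum did not pass without PA8001 or without PA8873 either. The commonest 27 nt fragment, which held 97.7% of the 27 nt counts, kept a change between -1.30 and -0.95 over the animals left out.

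The longer fragments with the same start had other values in the same comparisons. Of the 82 tested at 30 to 36 nt, 39 rose and 0 fell at month 15 against month 9 (47.6%, beside 30.6% called in either direction over the whole table), with a median log2 change of 0.93 beside -0.40 for the short ones. The commonest 32 nt fragment, tRF-32-Q1Q89P9L8422Q, changed by 1.49 ± 0.349 against month 9 (edgeR adjusted p = 0.00788), and the commonest 30 nt fragment, tRF-30-Q1Q89P9L8422, by 0.00 ± 0.285 (edgeR adjusted p = 0.996). Gly-GCC fragments of 25 to 29 nt had 2 of 26 rise (7.69%, median -0.26) and valine ones 3 of 12 (25.0%, median 0.82). Of all Gly-CCC 5′ counts at 25 to 36 nt, 25 to 29 nt held 44.7% ± 15.0 at month 15, 66.4% ± 3.34 at month 9 and 57.2% ± 13.2 at month 0. This share was lower at month 15 than at month 9 in 7 of 8 animals and lower than at month 0 in 5 of 8; without PA8001 and PA8003 it averaged 51.2% at month 15 and 66.9% at month 9. As the short and long fragments share a library total, their part in each other's levels was not tested.

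By the rule that chose them, the 103 sequences share their first 20 bases, so only later bases could differ. Of the counts of their length with that start, the 5 printed above held between 96.9% and 98.2%. The other 98 each differed from the one of their length by exactly 1 base, where the aligner's mismatch setting is not stated. All 72 possible single substitutions beyond base 20 were present at 27, 28 and 29 nt, and 11 of 15 and 15 of 18 at 25 and 26 nt. Of the 103, 56 were seen in all 40 libraries and 8 had a total of at most 3 counts. The 27 nt fragments with the most counts and with the month 15 results above are shown with the substituted base in capitals.
T21C, tRF-27-Q1Q89P9LK42: gcgccgctggtgtagtggtaCcatgca
A23G, tRF-27-Q1Q89P9LW42: gcgccgctggtgtagtggtatcGtgca
A27G, tRF-27-Q1Q89P9L84K: gcgccgctggtgtagtggtatcatgcG
T24C, tRF-27-Q1Q89P9L8H2: gcgccgctggtgtagtggtatcaCgca

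The next most abundant after the 5 commonest were T21C at 27 nt with 680 CPM, A28G at 29 nt (tRF-29-Q1Q89P9L84FY) with 569 CPM, T21C at 29 nt (tRF-29-Q1Q89P9LK4FS) with 542 CPM, A23G at 27 nt with 497 CPM and A27G at 27 nt with 403 CPM, as means over 40 libraries. Transitions, which exchange A with G or C with T, were the more frequent kind. As means over the 40 libraries, which weight small libraries like large ones, the 7 transitions at 27 nt added up to 2.25% of a library's 27 nt counts and ran between 0.152% and 0.620% each. On the same scale the 14 transversions added up to 0.533%, of which A27C alone made up 0.326%. Over the pooled 27 nt counts, where larger libraries weigh more, T21C made up 0.503% and A27C 0.268%.

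The shares of the 21 substitutions at bases 21 to 27 had nearly the same order at 29 nt and at 27 nt, with a Spearman correlation of 0.979 over the 21, which come from the same libraries. In at least 37 of 40 libraries, 8 of the 21 differed in 1 direction, 2 of them higher and 6 lower at 29 nt. T24C made up 0.273% ± 0.157 of the 29 nt counts and 0.194% ± 0.119 of the 27 nt counts (SD, n = 40), and was higher at 29 nt in 40 of 40 libraries. At 30 nt it made up 0.345%. C26G was higher at 29 nt in 37 of 40. C22T, G25A and A27G were lower at 29 nt in 40 of 40, T21C and A27C in 39 and A23G in 37, as with G25A at 0.197% of 29 nt counts and 0.270% of 27 nt counts. Libraries of one animal are not independent, so these counts are descriptions.

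Fragments substituted beyond base 20 made up a share of the 27 nt counts with this start that differed between libraries. It ran from 1.23% in the month 0 library of PA8914 to 5.80% in that of PA8001. This share averaged 2.84% ± 1.57 at month 0, 2.59% ± 0.961 at month 3, 3.03% ± 1.31 at month 6, 2.80% ± 1.65 at month 9 and 2.67% ± 1.01 at month 15, so the draws differed by less than the spread between animals. Over the 40 libraries its Spearman correlation was 0.995 with the substituted share at 29 nt, -0.718 with the library total and 0.834 with the TMM factor, where the points share libraries and animals. Smaller libraries thus had a larger substituted share, and the part of this in the changes of substituted fragments between months was not tested. Read errors and bases of the RNA itself cannot be told apart in these counts.

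**Figure D5:**
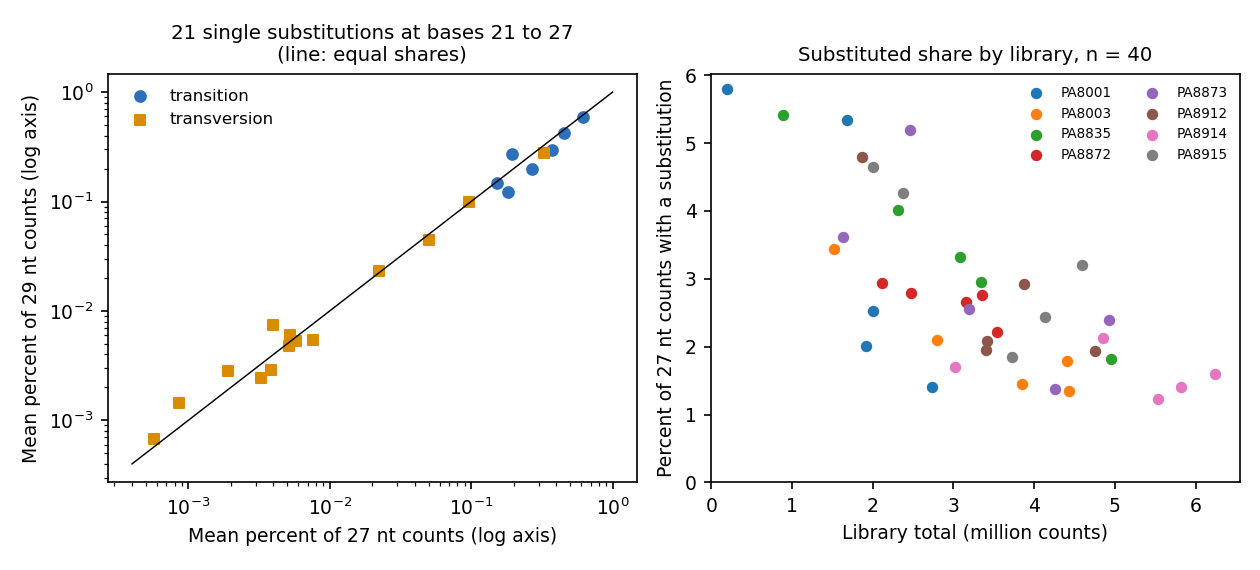
Left, mean percent of 29 nt counts against mean percent of 27 nt counts (log axes) for 21 single substitutions, with transitions as circles and transversions as squares and a line of equal shares; right, percent of 27 nt counts with a substitution against library total, 1 point per library coloured by animal. The substitutions follow the line with a Spearman correlation of 0.979, and the smallest library has the highest substituted share, 5.80%.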

How the data were processed

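The deposited table holds unscaled whole-number counts of each fragment sequence in each library, made by the authors; a second deposited table gives the sequences. Per the labels' protocols, RNA of integrity 7 or more was extracted with a magnetic-bead kit, molecular identifiers were added at cDNA synthesis, libraries with much adapter dimer were size-selected (which ones is not stated), and libraries were run on a NovaSeq X. The aligner, its mismatch setting, the tRNA reference and any collapsing by identifier are not stated in the labels. The submitters' processing notes name R 4.5.0, edgeR and limma, with no role. Of 60201 lines, 1614 without a fragment ID (0.0805% of counts) were left out, leaving 58587.

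Fragments kept by filterByExpr (minimum count 10, by month) were fitted with edgeR 4.0.16 in R 4.3.3: TMM scaling, a robust quasi-likelihood fit on month, blocked by animal, over all 40 libraries, Benjamini-Hochberg adjustment over 2447 fragments, and an adjusted p under 0.05 as passing. Tests were two-sided. The same fit was made on sums by first 20 bases and length. Ratios were tested by exact sign-flip over 8 animals (scipy 1.17.1, pseudocount 0.5, adjusted over 8 tests). CPM and percent values use the library totals of the deposited counts. The scripts were tested on simulated data. The block comes from the animal numbers in the labels: in deviations from month means, same-animal libraries correlated at 0.187 on average, others at -0.0247.

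Named fragments were the commonest of each length, the next 5 by abundance, up to 5 passing per direction and comparison, and, where none passed against month 0, the 2 with the smallest p. The fragments and lists were chosen with earlier results of these data known. Alternatives were RLE scaling, plain library totals, no filter, DESeq2 1.42.0, limma-voom (limma 3.58.1), no animal block, a ratio pseudocount of 1, each animal left out, and PA8001 and PA8003 taken out of the month 15 draw.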

Additional observations from a re-analysis of the deposited data

Results flagged for a closer look

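In groups of 8 libraries, 5 of 50 groups held a library far from the rest. Chance gives about 1 in 20 for independent groups, but these 50 are measures of the same 40 libraries. The 5 are therefore not read as an excess. At 26 nt and month 15, PA8872 had 0.379% of its library against 0.0453% in the next highest. At 25 nt, PA8003 stood highest at month 15 with 0.0263% (next 0.0131%), and PA8835 highest at month 9 with 0.00821% (next 0.00515%). At 28 nt and month 3, PA8872 was lowest with 0.258% (next 0.638%). The log2 ratio of 27 nt to 29 nt at month 0 was lowest in PA8001, the smallest library, at -2.07 (next -0.15).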

How the results depend on the processing

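Counts of short Gly-CCC fragments called at month 15 moved with the processing, and the cause was not tested; in each list the order is month 15 against month 3, 6 and 9 and all months jointly, beside 1, 6, 16 and 3 as reported. With the animal block left out (no replicate block), the counts were 0, 2, 14 and 1, and with plain library totals 0, 1, 3 and 0. With PA8001 and PA8003 taken out of the month 15 draw (2 libraries) all were 0. Without the filter, when 103 were tested, each of these and month 15 against month 0 gave 1. DESeq2 called 4 at month 15 against month 0, 4 against month 3 and 10 jointly, limma-voom 2 against month 3 and 6 jointly, and RLE scaling 0 against month 3. Each animal left out in turn gave 0 to 1 (month 0), 0 to 2 (month 3), 1 to 5 (month 6), 7 to 16 (month 9) and 0 to 2 (joint). The joint count was 0 without PA8003, PA8873, PA8912 or PA8914 and 1 without PA8001 or PA8872. Apart from month 15 against month 9 without the 2 libraries, no table-wide share is given for these settings. A change in these counts, or in those of the length sums below, is therefore not a result about these fragments alone.

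Of the length sums, 1 passed at month 15 against month 0 and 1 against month 3 without the filter (0 each as reported). Against month 6 the count was 2 with no replicate block and 0 without the 2 libraries (1 as reported); against month 9 it was 2 with plain library totals, 2 with no replicate block and 0 without the 2 libraries (1 as reported). Leaving out animals gave 0 to 1 for both.

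The log2 ratio of 27 to 29 nt at month 3 against month 0 was 0.12 as reported and -0.12 to 0.33 with an animal left out, below 0 only without PA8001. That ratio ran between -0.54 and -0.078 at month 15, 0.021 and 0.39 at month 6, and 0.13 and 0.52 at month 9. The 27 to 32 nt ratio ran between -1.61 and -0.76 at month 15, 0.58 and 1.12 at month 6, 0.57 and 1.24 at month 9, and 0.23 and 0.95 at month 3. Changes of the rare lengths turned round: tRF-25-Q1Q89P9L84 at month 15 against month 0 was -0.022 without PA8003 and -0.068 without the 2 libraries, with -0.022 to 0.79 over animals left out. tRF-26-Q1Q89P9L84D at month 15 was -0.26 to 0.74 against month 0 and -0.53 to 0.44 against month 9 over animals left out, below 0 only without PA8872, and -0.041 against month 9 with limma-voom. The 45 fragments under the filter, with at most 256 counts each, were tested only without it.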
